A study of Mus musculus with 4 samples.

Results

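The genes examined here carry glucose carbon through the heart muscle cell: the glucose transporters, the enzymes of glycolysis and their regulators, the fructose bisphosphatases, lactate dehydrogenase with the lactate carriers, and the pyruvate dehydrogenase complex with its kinases and phosphatase. Members were 35 listed genes, taken by every probe set whose single gene symbol in the platform annotation was on the list. This gave 32 of 18194 singly named genes, with 68 of the 45101 probe sets on the array. Of these, 65 probe sets of 31 genes were tested, and the other 3 were array controls made from *Gapdh*. No probe set carried the single name *Gpi1*, *Eno1* or *Pfkfb1*. *Gapdh* had only its 3 controls.

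Hearts of 10-week-old mice were profiled on Affymetrix GeneChip Mouse Genome arrays, with 2 arrays from Junf/f and 2 from Jun delta mu mice. Junf/f mice, the controls, carry floxed *Jun*, the gene of the AP-1 protein c-Jun. Jun delta mu mice carry the same floxed alleles together with MCK-Cre, in which the muscle creatine kinase promoter drives Cre recombinase in striated muscle, heart and skeletal muscle alike. Littermates were used, on a mixed 129/Ola-C57BL/6 strain background, and no operation had been done. The hearts also hold vessel, stromal and blood cells that keep *Jun*. The growth notes given with the samples describe digested and plated ventricles instead, and the arrays were taken as hearts from the titles, source and methods. In bulk tissue, fewer cells of a type and less RNA per cell cannot be told apart.

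Glucose enters the cell through the Slc2a transporters, is trapped by hexokinase, and is split and oxidized to pyruvate. Pyruvate is either reduced to lactate, which leaves or enters the cell through Slc16a carriers, or oxidized to acetyl-CoA in mitochondria by the pyruvate dehydrogenase complex. Pyruvate dehydrogenase kinases switch that complex off and its phosphatase switches it on. The adult heart lives mostly on fatty acids and keeps glucose use in reserve, so both phosphofructokinase and the pyruvate dehydrogenase complex are under tight control in this tissue.

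Signals are log2 RMA values throughout, and every difference is the mean of Jun delta mu minus that of Junf/f hearts. A probe set was said to rise or fall, or to pass the threshold, at more than 1.3-fold (0.38 on the log2 scale) with an unadjusted p under 0.05 in limma, after the selection the study used. *Jun* itself, as the mean of its 2 probe sets, had signals of 8.04 and 8.58 in Junf/f and of 6.80 and 7.00 in Jun delta mu hearts, a difference of -1.40 (SE 0.19) that left 37.8% of the Junf/f signal. All 8 ventricular muscle markers were bright on each array, and neither they nor the 10 fast skeletal, 5 endothelial, 4 macrophage or 5 adipocyte markers measured held a gene past the threshold. Of the 4 atrial markers, *Sln*, *Myl7* and *Myl4* were high only on Jun delta mu replicate 2, at 8.11, 9.11 and 9.02. The other, *Nppa*, was bright on every array, at 11.88 and 12.40 in Junf/f and 12.34 and 12.79 in Jun delta mu hearts, with overlapping groups. Of the fibroblast markers, 1 of 8 rose (*Postn*). The array of Junf/f replicate 1 differed most from the rest, with correlations of 0.994 to 0.995 against up to 0.997 among them, and it was the farthest from the mean of the remaining 3 for 32 of the 65 member probe sets (49.2%, against 39.8% of all probe sets).

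Most members of the route from glucose to acetyl-CoA had nearly the same signal in both genotypes. The median difference over the 65 member probe sets was 0.04, and over all probe sets it was 0.00. Differences lay within 0.1 of zero for 43 of 65 member probe sets (66.2%, against 56% of all). The 95% interval stayed inside 1.3-fold in either direction for 64.6% of member probe sets and 53.5% of all. For the remaining members the arrays could not exclude a change of that size.

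Of the 65 member probe sets, 3 fell and 0 rose. Among all 45037 probe sets tested, 1.53% passed the threshold, 0.959% as lower and 0.568% as higher. The 3 were single probe sets of *Fbp2*, *Pfkfb2* and *Pdk1*, genes of muscle fructose bisphosphatase, of the cardiac enzyme that makes and degrades fructose 2,6-bisphosphate, and of a pyruvate dehydrogenase kinase. Counted by the brightest probe set of each gene over the 4 arrays, 1 of 31 genes fell (*Fbp2*), where 1.45% of 18193 genes passed in either direction and 0.786% as lower. The count of 3 rested on single arrays. Without Junf/f replicate 1 the differences were -0.33 (*Fbp2*), -0.25 (*Pfkfb2*) and -0.36 (*Pdk1*), each under 1.3-fold, and *Slc2a1* was higher by 0.45. Without Junf/f replicate 2 both *Hk1* probe sets were higher by more than 1.3-fold, at 0.41 and 0.47. All 3 genes are also on the list that the study selected from these same arrays, so their direction here is no independent evidence. An unadjusted p under 0.05 in limma was reached by 7 of 65 member probe sets, against 5.16% of all. After Benjamini-Hochberg adjustment over all probe sets in limma, the share under 0.05 was 0% of all probe sets, although 2326 had an unadjusted p under 0.05. The lowest adjusted p of a member was 0.896 by limma and 0.898 by the methods' t-test, which called 0 of 45037 after adjustment and 2394 before it. Both Jun delta mu arrays were above both Junf/f arrays for 17 of 65 member probe sets, against 17.3% of all. They were below both Junf/f arrays for 9 of 65, against 16.7% of all.

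**Figure D1:**
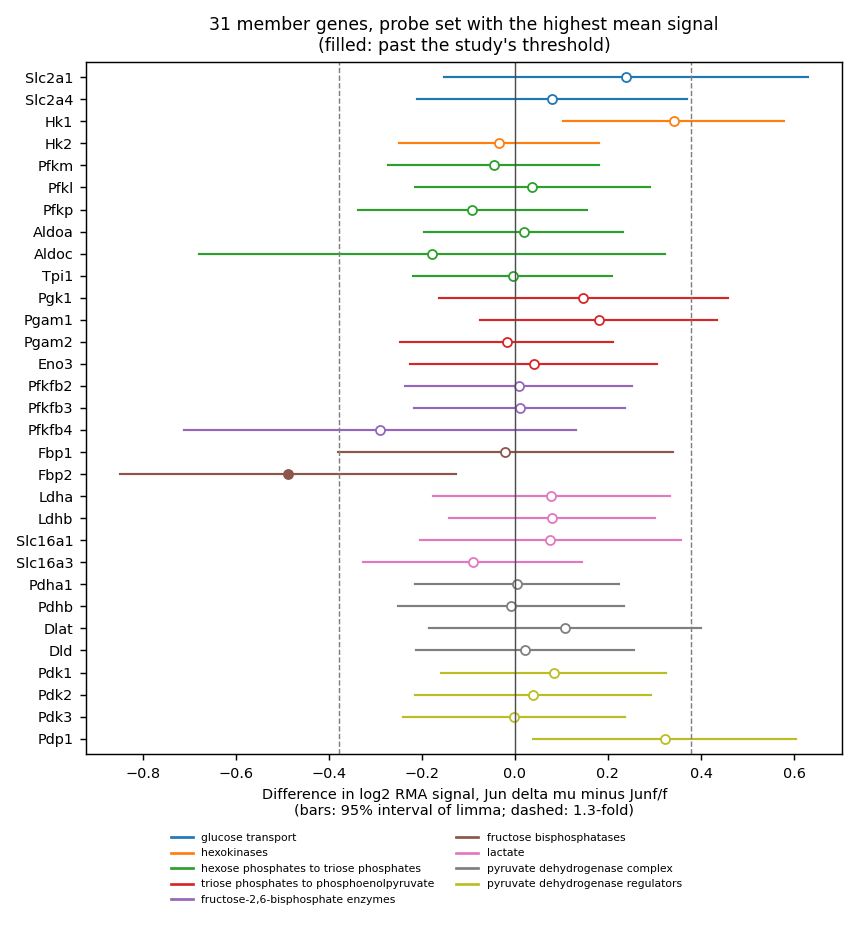
Difference in log2 RMA signal (horizontal axis, Jun delta mu minus Junf/f) of the brightest probe set of each of 31 member genes, coloured by step, with bars for the 95% interval of limma, dashed lines at 1.3-fold and a filled point for a gene past the threshold. *Fbp2*, at -0.49, is the single filled point, and 22 of 31 genes lie within 0.1 of zero.

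*Fbp2* codes for the muscle form of fructose-1,6-bisphosphatase, which runs the phosphofructokinase step backwards and serves glycogen synthesis from lactate. The gene, on chromosome 13 (GRCm38, 62836884 to 62858400), had 1 probe set (1449088_at). The signal was 8.91 and 8.60 in Junf/f hearts and 8.38 and 8.16 in Jun delta mu hearts. Both Jun delta mu arrays were below both Junf/f arrays. The difference was -0.49 (SE 0.14, 95% interval -0.85 to -0.13, limma unadjusted p = 0.017, adjusted p = 0.896), or 71.3% of the Junf/f signal. *Fbp2* did not pass without Junf/f replicate 1 (-0.33) or without Jun delta mu replicate 2 (-0.38), nor by the methods' t-test. Fast skeletal muscle, another kind of striated muscle, also uses this enzyme. The summed signal of its 10 markers was 8.57 and 8.67 in Junf/f and 8.71 and 8.68 in Jun delta mu hearts. Only 3 of these 10 markers had a mean signal above the median of all probe sets. The part of skeletal muscle in the *Fbp2* result was not tested. *Fbp1*, the liver form next to it on the chromosome, was dim at 4.40, 4.78, 4.53 and 4.61 in Junf/f replicates 1 and 2 and Jun delta mu replicates 1 and 2. Its groups overlapped and differed by -0.02.

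*Pfkfb2* makes and degrades fructose 2,6-bisphosphate, the strongest activator of phosphofructokinase, and is the heart form of that enzyme. The 4 probe sets of this gene on chromosome 1 (130689043 to 130729253) disagreed. Probe set 1422090_a_at read 7.81 and 7.33 in Junf/f and 7.12 and 7.03 in Jun delta mu hearts, a fall of -0.49 (SE 0.17, 95% interval -0.92 to -0.06, limma unadjusted p = 0.031, adjusted p = 0.896) with separate groups. The gap between the 2 Junf/f arrays was nearly as large as the difference, and this probe set did not pass without Junf/f replicate 1 (-0.25), Jun delta mu replicate 1 (-0.54) or Jun delta mu replicate 2 (-0.44). The brightest probe set, 1429486_at, read 8.36 and 8.51 in Junf/f and 8.47 and 8.42 in Jun delta mu hearts. Its groups overlapped, at a difference of 0.01 with a 95% interval from -0.24 to 0.25. Probe set 1422091_at differed by -0.29 and 1422092_at by 0.27, in opposite directions and neither past the threshold. Both rested on Junf/f replicate 1, which on 1422091_at stood alone at 8.01 with the other 3 arrays between 7.41 and 7.50, and on 1422092_at at 6.27 with the others between 6.89 and 6.96. Without that array they differed by -0.019 and -0.075. The median over the 4 probe sets on each array differed by -0.39, but was not past the threshold (limma unadjusted p = 0.066).

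*Pdk1* is a kinase that phosphorylates and silences the pyruvate dehydrogenase complex, and is known as a target of the hypoxia factor HIF-1. It lies on chromosome 2 (71873215 to 71903858). Probe set 1423748_at read 9.39 and 9.20 in Junf/f and 8.80 and 8.87 in Jun delta mu hearts. The groups were separate. The fall was -0.46 (SE 0.11, 95% interval -0.72 to -0.19, limma unadjusted p = 0.006, adjusted p = 0.896), or 72.7% of the Junf/f signal, and it was the 1 member probe set that also passed by the methods' t-test. Without Junf/f replicate 1 it was -0.36, and without Jun delta mu replicate 1 it was -0.42, neither past the threshold. A second probe set, 1423747_a_at, was lower on both Jun delta mu arrays (9.86 and 9.76) than on both Junf/f arrays (10.12 and 10.03), at -0.26 (limma unadjusted p = 0.035) and so under 1.3-fold. The brightest, 1435836_at, went the other way, with 11.15 and 11.14 in Junf/f and 11.15 and 11.31 in Jun delta mu hearts, at 0.08. The dimmest, 1434974_at, differed by 0.04. The median over the 4 probe sets on each array differed by -0.36 (limma unadjusted p = 0.008, adjusted p = 0.935), under 1.3-fold and so not past the threshold. Whether these probe sets read different transcripts of the gene was not tested.

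**Figure D2:**
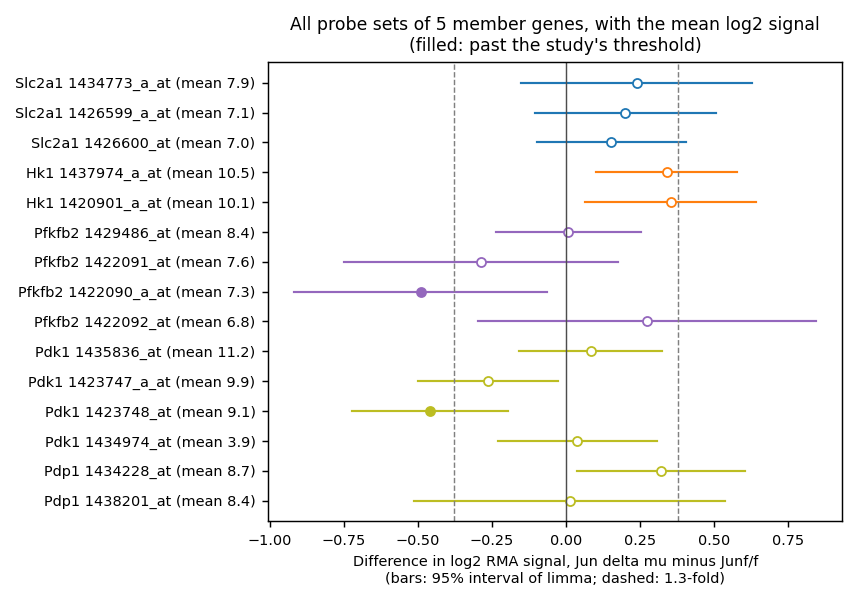
Difference in log2 RMA signal (horizontal axis, Jun delta mu minus Junf/f) for all 15 probe sets of *Slc2a1*, *Hk1*, *Pfkfb2*, *Pdk1* and *Pdp1*, 1 colour for each step of the pathway, with bars for the 95% interval of limma, dashed lines at 1.3-fold and the mean signal beside each name. Both *Hk1* probe sets lie together near 0.35, while those of *Pfkfb2* spread from -0.49 to 0.27 and those of *Pdk1* from -0.46 to 0.08.

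The 3 genes with a probe set that fell are shown by the 250 bases before a transcription start, because c-Jun is a transcription factor that binds DNA as part of AP-1. The sequences are RefSeq's on GRCm38.p6, printed 5′ to 3′ on the gene's strand. Capitals mark a match, on either strand, to TGANTCA (the AP-1 motif), TGACGTCA (the CRE), CACGTG (the E-box) or ACGTG. The last is a form of the core of the hypoxia response element and also lies inside the E-box. Other forms of that core were not searched.
Fbp2, chr13:62858401-62858650, minus strand: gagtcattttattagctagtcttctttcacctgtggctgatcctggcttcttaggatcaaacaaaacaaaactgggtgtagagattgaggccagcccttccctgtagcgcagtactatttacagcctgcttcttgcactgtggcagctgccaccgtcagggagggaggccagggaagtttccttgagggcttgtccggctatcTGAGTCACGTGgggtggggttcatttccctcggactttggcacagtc
Pfkfb2, first of 3 listed starts, chr1:130715822-130716071, minus strand: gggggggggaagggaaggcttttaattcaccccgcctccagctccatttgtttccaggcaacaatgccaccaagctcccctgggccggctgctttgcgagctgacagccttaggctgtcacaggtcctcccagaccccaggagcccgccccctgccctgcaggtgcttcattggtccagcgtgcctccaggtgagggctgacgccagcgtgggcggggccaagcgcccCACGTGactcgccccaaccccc
Pdk1, first of 2 listed starts, chr2:71872974-71873223, plus strand: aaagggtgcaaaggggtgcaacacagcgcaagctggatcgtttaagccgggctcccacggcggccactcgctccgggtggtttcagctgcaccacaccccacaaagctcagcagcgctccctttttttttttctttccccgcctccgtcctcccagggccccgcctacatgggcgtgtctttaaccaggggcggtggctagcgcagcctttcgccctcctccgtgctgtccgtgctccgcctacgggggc
In *Fbp2* an AP-1 motif, 47 to 41 bases before the start, ran into an E-box at 42 to 37 bases. In *Pfkfb2* an E-box lay 22 to 17 bases before the start shown, and the *Pdk1* window held none of the 4 motifs. The AP-1 motif was present in 2 of 42 windows of 29 member genes (4.76%, *Aldoa* and *Fbp2*), where 6.75% of all 32851 windows held it. The CRE was in 1 member window (*Ldha*) and in 1.55% of all windows. The E-box was in 7 of 42 (16.7%, against 6.02% of all) and ACGTG in 19 of 42 (45.2%, against 16.6% of all). These are matches of letters in short windows, and no binding was measured.

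**Figure D3:**
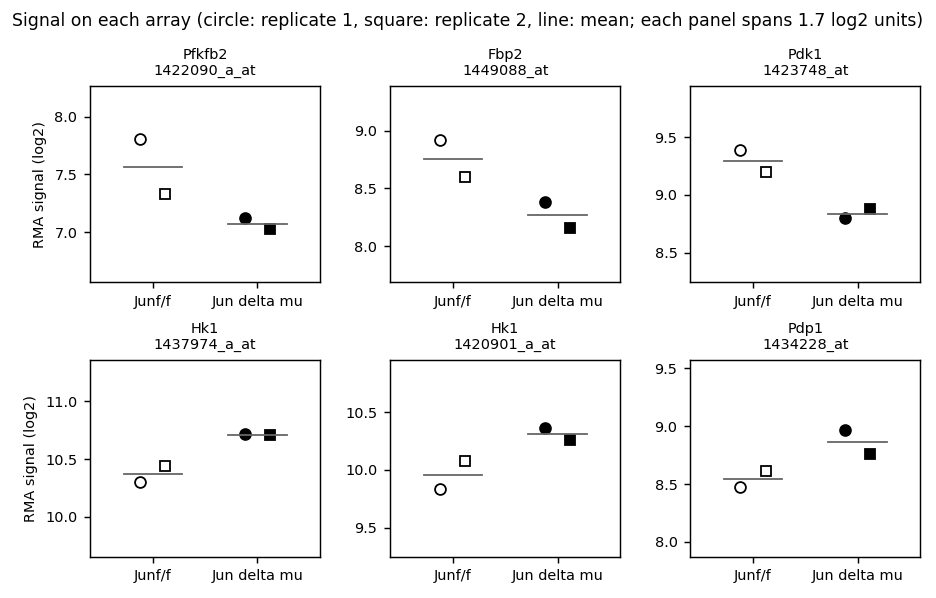
RMA signal (vertical axis, log2) on each of the 4 arrays for 6 member probe sets, with circles for replicate 1, squares for replicate 2, open for Junf/f, filled for Jun delta mu, and a line at each mean. In the upper row (*Pfkfb2*, *Fbp2*, *Pdk1*) both Jun delta mu arrays lie below both Junf/f arrays, and in the lower row (*Hk1* on 2 probe sets, *Pdp1*) above them.

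Glucose transport did not pass the threshold at any of 5 probe sets. *Slc2a4* codes for GLUT4, the transporter that insulin and contraction bring to the surface of muscle cells. Its brightest probe set read 11.49 and 11.75 in Junf/f and 11.68 and 11.72 in Jun delta mu hearts. These overlapped and differed by 0.08, and the other probe set differed by -0.04. *Slc2a1* codes for GLUT1, the transporter of basal uptake that is higher in the fetal heart. Its 3 probe sets differed by 0.24, 0.20 and 0.15, and on the latter 2 the groups were separate. The brightest read 7.95 and 7.54 in Junf/f and 7.93 and 8.04 in Jun delta mu hearts, so that Junf/f replicate 1 lay among the Jun delta mu arrays. It passed the threshold, at 0.45, only when that array was left out.

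Hexokinase traps glucose as glucose 6-phosphate. *Hk1*, the form with the wider tissue distribution, lies on chromosome 10 (62268855 to 62379920). Its brightest probe set (1437974_a_at) read 10.30 and 10.44 in Junf/f hearts and 10.71 and 10.71 in Jun delta mu hearts. A second (1420901_a_at) read 9.84 and 10.08, then 10.36 and 10.26. On both the groups were separate and Jun delta mu was higher, by 0.34 (SE 0.095, 95% interval 0.10 to 0.58, limma unadjusted p = 0.013) and 0.35 (SE 0.12, 95% interval 0.06 to 0.64, limma unadjusted p = 0.025), just under 1.3-fold. They passed only without Junf/f replicate 2, at 0.41 and 0.47. *Hk2*, the insulin-regulated muscle form, read 11.58 and 11.61 in Junf/f and 11.56 and 11.56 in Jun delta mu hearts, a difference of -0.03 with a 95% interval from -0.25 to 0.18. The difference between *Hk1* and *Hk2* in their response was not tested.

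From hexose phosphates to triose phosphates, 0 of 17 probe sets of 6 genes passed, with a median difference of 0.02. *Pfkm*, the muscle form of phosphofructokinase and the main control point of glycolysis, read 12.89 and 12.99 in Junf/f and 12.90 and 12.89 in Jun delta mu hearts. The groups overlapped at -0.05, with a 95% interval from -0.27 to 0.18. The liver form *Pfkl* differed by -0.01 to 0.05 over 3 probe sets and the platelet form *Pfkp* by -0.31 to -0.09 over 3, the largest of these on its dimmest probe set. The muscle aldolase *Aldoa*, which splits fructose 1,6-bisphosphate, read 13.77 and 13.78 in Junf/f and 13.80 and 13.79 in Jun delta mu hearts on its brightest probe set. All 5 of its probe sets, with differences of 0.02 to 0.12, have names ending in _x_at, which marks probes that may also bind other transcripts. The brain form *Aldoc* was dim and differed by -0.18 and 0.07, and the triose phosphate isomerase gene *Tpi1* by -0.04 to 0.07 over 3 probe sets. Without probe sets that may bind other transcripts the median of this step was -0.04 in place of 0.02. That setting leaves out *Aldoa* altogether and the brightest *Tpi1* probe set, so the medians do not cover the same genes.

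From triose phosphates to phosphoenolpyruvate, 0 of 6 probe sets of 4 genes passed, with a median difference of 0.06. *Eno3*, the muscle enolase, read 13.65 and 13.85 in Junf/f and 13.80 and 13.78 in Jun delta mu hearts. The groups overlapped at 0.04. *Pgk1*, phosphoglycerate kinase, which makes the first ATP of glycolysis, differed by 0.05, 0.07 and 0.15 over its 3 probe sets. On the brightest of them Junf/f replicate 1 read 12.46, and the other 3 arrays lay between 12.73 and 12.77. The probe sets at 0.15 and 0.07 have names ending in _x_at, and the one at 0.05 does not. *Pgam2*, the muscle phosphoglycerate mutase, differed by -0.02. Its counterpart in other tissues, *Pgam1*, read 9.10 and 9.28 in Junf/f and 9.39 and 9.35 in Jun delta mu hearts, with separate groups at 0.18 (limma unadjusted p = 0.132). The 3 controls made from *Gapdh* differed by 0.01 to 0.06 and were not tested.

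Among the other fructose 2,6-bisphosphate enzymes, *Pfkfb3*, the form linked to high glycolytic flux, differed by 0.01 and 0.17, the latter at a dim signal of 4.72 to 5.06. *Pfkfb4* read 6.29 and 5.82 in Junf/f and 5.75 and 5.78 in Jun delta mu hearts, at -0.29 (limma unadjusted p = 0.139). Its groups were separate, but 3 of the 4 arrays lay close together and Junf/f replicate 1 stood above them.

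Lactate genes differed little. All 8 probe sets of 4 genes lay within 0.1 of zero, and for each of them the 95% interval stayed inside 1.3-fold. *Ldhb*, the heart subunit of lactate dehydrogenase, read 13.53 and 13.55 in Junf/f and 13.58 and 13.65 in Jun delta mu hearts on its brightest probe set. That was a difference of 0.08, and its 4 probe sets ran from 0.04 to 0.08. The brightest has a name ending in _x_at, but the probe sets at both ends of this range include names that do not. *Ldha*, the muscle subunit, read 12.42 and 12.53 in Junf/f and 12.62 and 12.48 in Jun delta mu hearts. These overlapped at 0.08. *Slc16a1*, the carrier MCT1 through which the heart takes up lactate, differed by 0.08 and 0.02, and *Slc16a3*, the carrier MCT4 of lactate export, by -0.09 at a dim signal.

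The pyruvate dehydrogenase complex had 0 of 9 probe sets past the threshold over its 4 member genes. *Pdha1*, the E1 alpha subunit that carries the regulatory phosphorylation sites, read 13.50 and 13.54 in Junf/f and 13.49 and 13.55 in Jun delta mu hearts. The difference was 0.00, with a 95% interval from -0.22 to 0.22. *Pdhb*, the E1 beta subunit, read 13.45 and 13.57 in Junf/f and 13.55 and 13.46 in Jun delta mu hearts and differed by -0.01. A dimmer *Pdhb* probe set differed by 0.13. *Dlat*, the E2 subunit that passes on the acetyl group, differed by 0.06 to 0.11 over 3 probe sets. *Dld*, the E3 subunit that other dehydrogenase complexes share, differed by 0.02 and 0.00, the latter at a dim signal of 3.60 to 3.94.

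Of the other member genes that regulate that complex, *Pdk2*, *Pdk3* and *Pdp1*, none passed the threshold. *Pdk2*, a kinase abundant in heart, read 11.29 and 11.41 in Junf/f and 11.32 and 11.46 in Jun delta mu hearts. The groups overlapped at 0.04, and *Pdk3* differed by 0.00. *Pdp1*, the calcium-stimulated phosphatase that reactivates the complex, lies on chromosome 4 (11958183 to 11966450). Its brighter probe set (1434228_at) read 8.48 and 8.61 in Junf/f and 8.97 and 8.76 in Jun delta mu hearts, with separate groups at 0.32 (SE 0.11, 95% interval 0.04 to 0.60, limma unadjusted p = 0.032), below 1.3-fold. It passed without Junf/f replicate 2 (0.39) and without Jun delta mu replicate 2 (0.42). The other probe set (1438201_at) read 8.70 and 8.11, then 8.53 and 8.30, with overlapping groups at 0.01.

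**Figure D4:**
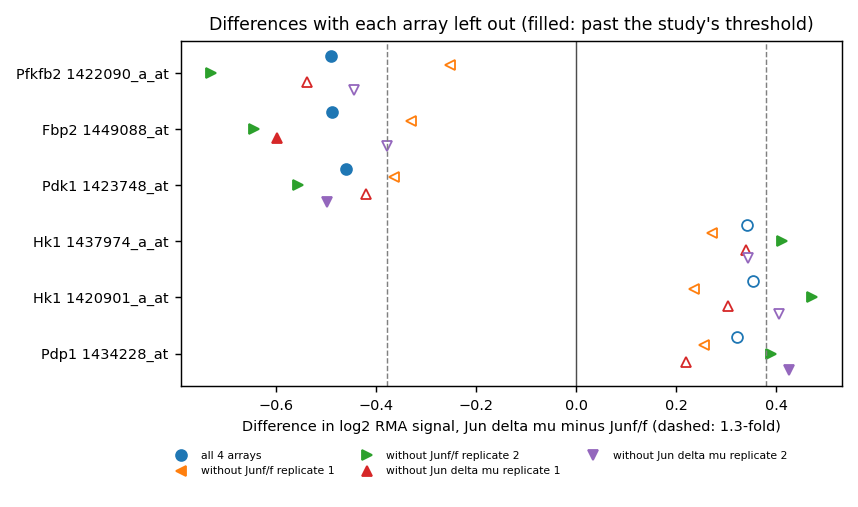
Difference in log2 RMA signal (horizontal axis, Jun delta mu minus Junf/f) of 6 member probe sets with all 4 arrays (circles) and with each array left out in turn (triangles), filled where past the threshold, with dashed lines at 1.3-fold. Every point of a probe set lies on the same side of zero, and all 6 move toward zero without Junf/f replicate 1, which leaves none of them filled.

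Other genes on or near the pathway were read from a list of 41 genes, of which 34 had a probe set. That list was chosen with earlier results of these data known, so the count from it is no independent evidence. By the brightest probe set, 4 of 34 genes fell and 0 rose, where 0.786% of all 18193 genes passed as lower and 1.45% in either direction. By the methods' t-test the count was 0. The 4 genes were *Bpgm*, *Pdk4*, *Slc16a6* and *Slc2a2*, and a dimmer probe set of *Slc16a9* fell as well. Each of the 4 was under 1.3-fold with some single array left out, as given below. The median difference of the 34 genes was -0.03, against 0.01 over all genes. Differences lay within 0.1 of zero for 12 of the 34 genes (35.3%, against 58.7% of all genes). *Pkm*, pyruvate kinase, read 12.28 and 12.46 in Junf/f and 12.44 and 12.38 in Jun delta mu hearts and differed by 0.04. *Mpc1*, of the mitochondrial pyruvate carrier, differed by 0.04, and *Pdhx*, the protein that holds E3 in the pyruvate dehydrogenase complex, by 0.18 with separate groups (limma unadjusted p = 0.113).

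*Pdk4*, the pyruvate dehydrogenase kinase that rises with fasting and fatty acid supply, lies on chromosome 6 (5483351 to 5496278). It read 12.92 and 11.90 in Junf/f and 11.66 and 11.55 in Jun delta mu hearts. The fall was -0.81 (SE 0.32, limma unadjusted p = 0.049, adjusted p = 0.896). Junf/f replicate 1 lay far above the other 3 arrays, and without it the difference was -0.30 and not past the threshold. Nor did *Pdk4* pass without Jun delta mu replicate 1 (-0.86) or Jun delta mu replicate 2 (-0.75).

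*Bpgm* makes and degrades 2,3-bisphosphoglycerate, the side product of glycolysis that lowers the oxygen affinity of haemoglobin, and is known chiefly from red blood cells. Its place is chromosome 6 (34476356 to 34505136). All 3 of its probe sets fell with separate groups, by differences of -0.53, -0.53 and -0.44. The brightest of them read 9.38 and 9.10 in Junf/f and 8.93 and 8.67 in Jun delta mu hearts. Of the red blood cell markers 3 of 4 were measured and 1 fell, *Alas2*, the haem synthesis enzyme of erythroid cells, at 10.45 and 10.32 in Junf/f and 10.16 and 9.62 in Jun delta mu hearts (-0.49). The summed signal of those markers was 10.60 and 10.41 in Junf/f and 10.27 and 9.78 in Jun delta mu hearts, in the same order over the arrays as *Bpgm*. That sum is mostly *Alas2*, and the other 2 measured markers did not follow this order. *Slc4a1*, the anion exchanger of the red cell membrane, read 7.22 and 6.08 in Junf/f and 6.34 and 6.32 in Jun delta mu hearts with overlapping groups. *Hba-a1*, an alpha globin gene, was dim at 3.47 to 3.59, below the array medians of 5.45 to 5.47, and differed by -0.01. A signal that dim says little about red blood cells. The order of the arrays was also not particular to *Bpgm*. *Fbp2*, *Pdk4*, *Pfkfb2* on 1422090_a_at and *Slc16a9* on 1454104_a_at had the same order, while the fallen probe sets of *Pdk1*, *Slc16a6* and *Slc2a2* did not. The part of red blood cells in the *Bpgm* result was not tested. None of the 3 *Bpgm* probe sets passed without Junf/f replicate 1 (-0.30 to -0.43) or without Jun delta mu replicate 2 (-0.31 to -0.35).

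*Slc16a6*, a monocarboxylate carrier of the lactate carrier family, read 6.69 and 6.51 in Junf/f and 6.00 and 6.34 in Jun delta mu hearts (-0.43). The dimmer *Slc16a9* probe set (1454104_a_at) read 5.86 and 5.45, then 5.09 and 5.05 (-0.58), and the other 2 probe sets of that gene differed by -0.15 and -0.23 without passing. *Slc2a2*, the glucose transporter of liver and pancreatic islets, passed at -0.40 with signals of 3.41 to 3.95, below the array medians of 5.45 to 5.47, and the files hold no detection calls. *Slc16a6* did not pass without Junf/f replicate 1 (-0.34) or Jun delta mu replicate 1 (-0.26), *Slc16a9* without Jun delta mu replicate 2 (-0.56), or *Slc2a2* without Junf/f replicate 2 (-0.33) or Jun delta mu replicate 1 (-0.32).

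**Figure D5:**
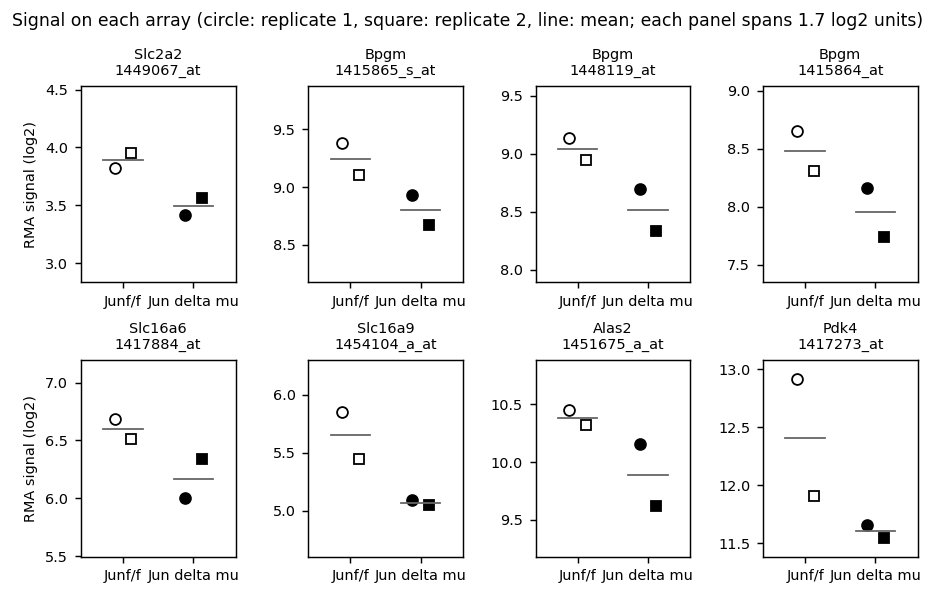
RMA signal (vertical axis, log2) on each of the 4 arrays for 7 probe sets of other pathway genes that fell and for the red blood cell marker *Alas2*, with circles for replicate 1, squares for replicate 2, open for Junf/f, filled for Jun delta mu, and a line at each mean. *Pdk4* shows 1 Junf/f array at 12.92 far above the other 3. *Bpgm*, *Alas2*, *Pdk4* and *Slc16a9* share their lowest array, Jun delta mu replicate 2, and *Slc16a6* and *Slc2a2* do not.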

How the data were processed

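Total RNA from the hearts of 2 mice per genotype was hybridised by the authors, with 1 array per sample. The deposited values are log2 RMA signals of 45101 probe sets, made by the authors (the submitters' processing notes name RMA and oligo; versions are not given in the sources used here) and without detection calls. They were used as given. The number of arrays limits the precision.

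The 64 control probe sets were left out and a model with genotype alone was fitted to the other 45037 in R 4.3.3 by limma 3.58.1 (lmFit, then eBayes, two-sided, with Benjamini-Hochberg adjustment). Of these, 34945 have a single gene name in the annotation, 932 have more than 1 and 9160 lack one. 3 probe sets that name *Gapdh* and 1 that names *Hk1* beside other genes were not used. Genes were placed on GRCm38 by RefSeq. The members, the other lists and the tests were chosen with earlier results of these data known. Full values are given for members with a probe set past the threshold or with probe sets that disagree, and for the brightest 1 or 2 of each step. Other members described in full, *Pfkfb4*, *Pgam1* and *Pdp1*, were chosen after their values were seen. Alternatives were the methods' t-test, replicate number as a block, another variance prior, array weights, removal of the dimmest 40% of probe sets, 3 normalizations, specific probe sets only, the median of a gene's probe sets, and each array left out. The fit was tested on simulated data. Figures were drawn with matplotlib 3.10.9.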

Additional observations from a re-analysis of the deposited data

How the results depend on the processing

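Removal of the dimmest 40% of probe sets, the other variance prior, array weights, the 3 normalizations and specific probe sets only each left 3 member probe sets past the threshold, all lower. Leaving out each array in turn takes the spread from the genotype that keeps both arrays. Member probe sets past the threshold then numbered 1 to 10, member genes 1 to 4, other pathway genes 1 to 5 and all probe sets 739 to 3452, and the median difference over members ran from -0.019 to 0.068. Without Junf/f replicate 1 the 1 member probe set past the threshold was higher, and the 10 came without Junf/f replicate 2. By the methods' t-test 200 probe sets passed (89 higher, 111 lower), with 1 member probe set, 0 member genes and 0 other pathway genes. The cause was not tested. Without the dimmest probe sets 2 other pathway genes passed, since *Slc2a2* was removed and *Pdk4* missed the threshold (limma unadjusted p = 0.057).

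The replicate numbers do not pair the arrays (correlation of same-numbered deviations 0.03). With the replicate block 683 probe sets passed in place of 688, with 3 member probe sets, 1 member gene and 3 other pathway genes.

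Signs turned mostly for differences near zero. *Pdha1* was at -0.0089 by quantile normalization, -0.018 by cyclic loess and -0.0099 by the median of its probe sets, and *Aldoa* at -0.0055 by cyclic loess. By the median of a gene's probe sets *Pdhb* was at 0.059. That setting moved *Pfkfb2* from 0.01 to -0.39 (limma unadjusted p = 0.066) and *Pdk1* from 0.08 to -0.36 (limma unadjusted p = 0.008), neither near zero. None of these genes passed the threshold by the median. With an array left out, *Slc2a4* ranged from -0.047 to 0.21, *Pfkm* from -0.097 to 0.0060, *Eno3* from -0.064 to 0.14, *Pfkfb3* from -0.036 to 0.056, *Fbp1* from -0.21 to 0.17, *Pdha1* from -0.023 to 0.030, *Pdhb* from -0.071 to 0.055, *Pdk2* from -0.032 to 0.11 and *Pkm* from -0.050 to 0.13. Single probe sets ranged from -0.068 to 0.083 (*Pfkfb2* 1429486_at), -0.075 to 0.62 (*Pfkfb2* 1422092_at), -0.55 to -0.019 without a turn of sign (*Pfkfb2* 1422091_at), -0.066 to 0.14 (*Pdk1* 1434974_at) and -0.28 to 0.31 (*Pdp1* 1438201_at).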
